A study of Mus musculus with 11 samples.

Results

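The collagen genes were examined in 3T3-L1 adipocytes, fat cells differentiated in culture from an established mouse preadipocyte line. Members were all genes whose single gene symbol in the platform annotation begins with Col, a digit and the letter a, and each was read from its brightest probe set, the set of oligonucleotide probes on the array that reports 1 transcript. This gave 42 collagen genes with 82 probe sets among 18193 genes on the array. Of these, 35 had a mean intensity above the limit of 51.7 used to leave out dim genes, and 15623 genes of the whole array were tested. The 6 fibrillar chains (Col1a1, Col1a2, Col3a1, Col5a1, Col5a2 and Col5a3) and the 8 basement membrane chains (Col4a1 to Col4a6, Col15a1 and Col18a1) were all among the tested genes, with 21 of 28 other collagen genes. The 7 below the limit were Col6a5, Col8a2, Col9a2, Col17a1, Col19a1, Col24a1 and Col26a1.

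The series held 11 Affymetrix arrays of these cells in 4 groups, harvested the same day after differentiation. The control group (3 arrays) was labelled as untreated. The CI group (2 arrays) modelled chronic hyperinsulinemia and received 10 nM insulin in repeated additions over a day and the next morning. The TNF group (3 arrays) was kept in 2 ng/ml TNFα, an inflammatory cytokine, for 4 days, and the DEX group (3 arrays) in 20 nM dexamethasone, a synthetic glucocorticoid, for 8 days. The protocol names 0.01% ethanol as the carrier control for dexamethasone, and whether the untreated arrays received it is unclear. Each treatment is a model of insulin resistance in 1 cell line, and the exposures differed in length. The labels call the material adipose tissue and do not tell whether replicates were grown separately; the p-values therefore weigh differences against the spread of these arrays, which could be technical in part.

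Collagens are secreted proteins of 3 chains wound into a triple helix. Types I, III and V form the banded fibrils of connective tissue, with type I and III chains as the bulk and type V chains in the fibril core. Type IV chains form the sheet-like network of basement membranes, which surround every mature fat cell, and types XV and XVIII are basement membrane proteoglycans whose cleaved ends are restin and endostatin. Fibroblast-like preadipocytes make much fibrillar collagen, and basement membrane chains become prominent as fat cells mature. Newly made chains are hydroxylated, glycosylated, folded with the chaperone Hsp47 (Serpinh1), trimmed outside the cell and cross-linked by lysyl oxidases.

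All values are probe set intensities on a linear scale as deposited. Levels of different probe sets were not set against each other, except in the summed levels of cell type markers, where bright probe sets weigh most. Median intensity was 124.5 to 129.5 per array, and the number of arrays, not a depth of counting, limits the precision. Differences are given on the log2(intensity + 16) scale, which understates the change of dim genes, with standard errors (SE) and Benjamini-Hochberg adjusted p-values over all tested genes from limma, a linear model fitted to all arrays. A gene was called changed at an adjusted p under 0.05. Of the adipocyte markers, Adipoq (adiponectin) ran from 20816 to 23388 and Fabp4 from 21646 to 23317 over the arrays. The others varied more: Cidec from 7861.6 to 14930, Retn from 7307.7 to 14442 and Lipe from 6732.4 to 10650. Pparg ran from 5080 to 7450.4 and Slc2a4 from 1338.7 to 2722.5. Of the macrophage markers, 4 of 7 lay under the dim limit, among them Ptprc and Cd163, and of the endothelial markers 3 of 5 did (Pecam1, Tek and Tie1). The macrophage marker Csf1r ran from 343.1 to 504.5 and the endothelial marker Kdr from 290.4 to 347.8 over the 11 arrays.

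All 6 fibrillar chains were lower in DEX than in control, and they made up 6 of the 14 collagen genes that fell there. In DEX against control, 2 collagen genes rose and 14 fell, 45.7% of the 35 tested. Of all tested genes, 27.6% were called in DEX, 14% higher and 13.6% lower. In TNF, 4 collagen genes rose and 9 fell (37.1%), where 25.2% of all tested genes were called, 13.9% higher and 11.2% lower. In CI, 4 rose and 4 fell (22.9%), where 17.3% of all tested genes were called, 8.38% higher and 8.88% lower. These 3 comparisons share the control arrays, and whether the treatments' counts differ was not tested. The median log2 difference of the tested collagen genes was -0.11 in DEX, -0.09 in TNF and 0.02 in CI, beside 0.02, -0.01 and 0.01 over all tested genes. Groups without overlap were common. Of 15623 tested genes, every CI array lay above every control array at 3746 and below at 3439. For TNF these counts were 3404 and 3333, and for DEX 3410 and 2922. Of the 35 collagen genes, they were 11 and 6 in CI, 4 and 12 in TNF and 7 and 17 in DEX.

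**Figure D1:**
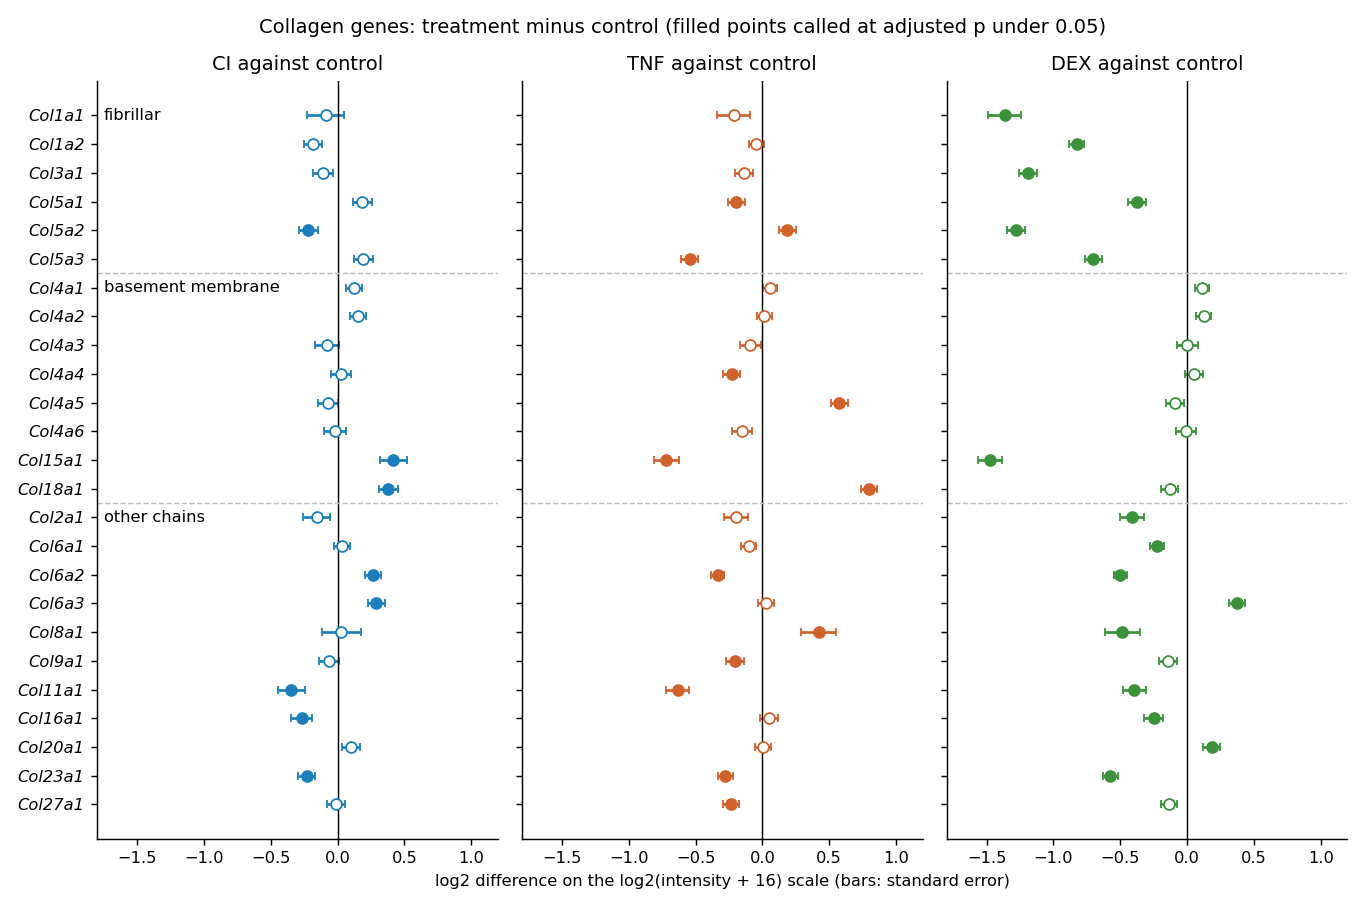
Log2 difference from control (horizontal axis, log2(intensity + 16) scale) of all fibrillar and basement membrane chains and of the other collagen genes called in at least 1 comparison with control; bars are standard errors and filled points were called. All 6 fibrillar chains lie left of zero in DEX, while of the basement membrane chains only Col15a1 does so with a filled point.

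The fibrillar chains fell in DEX by 0.38 to 1.36 on the log2 scale. Col1a1, the α1 chain of type I collagen, read 8499.7, 7154 and 6047 in control and 3307, 2305 and 2801 in DEX. Every DEX array lay below every control array, a log2 difference of -1.36 (SE 0.123, adjusted p = 6.58e-07). Its partner Col1a2, the α2 chain of the same trimer, read 17551, 16048 and 16272 in control and 9895, 8927 and 9272 in DEX. The groups again did not overlap, with a difference of -0.83 (SE 0.0569, adjusted p = 3.26e-08). Col3a1, the only chain of type III collagen, read 16659, 16828 and 15818 in control and 8039.6, 6762 and 6801 in DEX, a difference of -1.19 (SE 0.0679, adjusted p = 4.31e-09). All 3 DEX arrays lay far below the lowest control array.

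The type V chains, which help to set fibril diameter, fell to different extents. Col5a2 read 6303, 5933 and 5456 in control and 2611, 2279.5 and 2361 in DEX. Its difference was -1.28 (SE 0.0646, adjusted p = 1.16e-09), next in size to that of Col1a1. Col5a3 read 1278, 1174 and 1228 in control and 762.0, 701.3 and 783.0 in DEX, a difference of -0.70 (SE 0.0625, adjusted p = 5.81e-07). Col5a1, a chain of the common type V trimers, read 2932, 2735 and 2659.8 in control and 2327, 2089.9 and 1996 in DEX. It had the smallest fall of the 6, -0.38 (SE 0.0648, adjusted p = 0.000428), still with every DEX array below every control array.

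**Figure D2:**
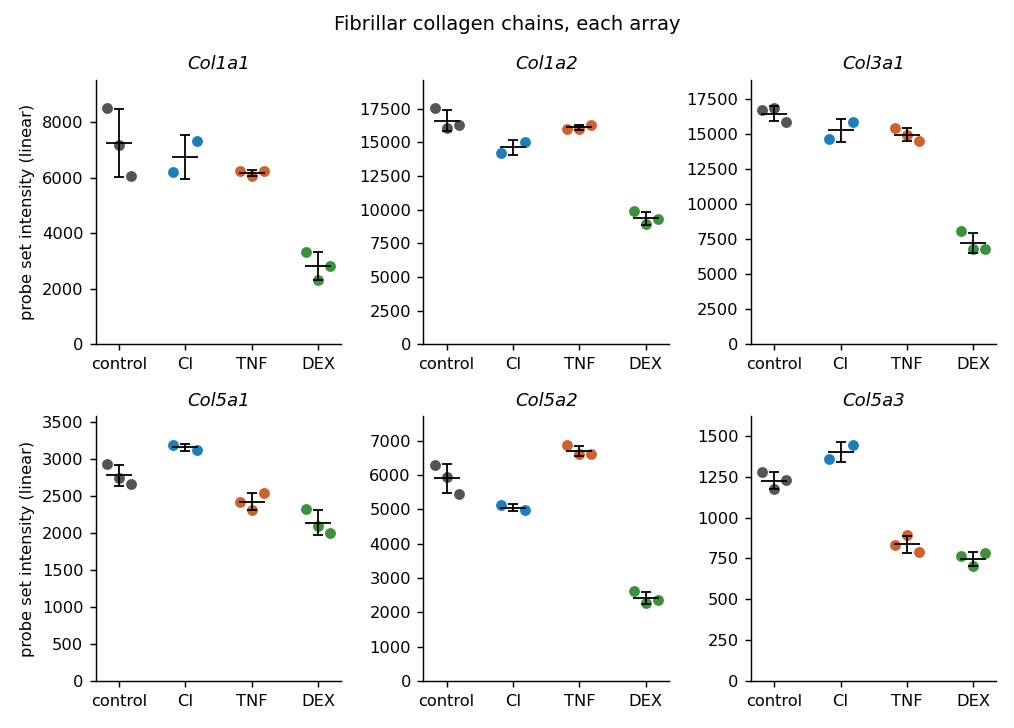
Probe set intensity (linear, vertical axis from 0) of the 6 fibrillar chains in each array of the control, CI, TNF and DEX groups; points are arrays, and bars are the mean and SD. The DEX arrays of each chain lie below all control arrays, and the TNF arrays of Col3a1, Col5a1 and Col5a3 do so too.

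All 6 fibrillar chains had at least 1 further probe set, and the size of the fall differed between probe sets of a gene. Col3a1 fell by 2.26 on the log2 scale at its dimmer probe set (group means 2102 in control and 423.8 in DEX), where its brightest gave -1.19. The dimmer sets of Col1a1, Col5a2 and Col1a2 fell by 1.74, 1.43 and 1.31. The brightest sets of Col1a2 and Col3a1 read up to 17551 and 16828 in control, where the largest value of any probe set on an array was 22500 to 25930, and any part of signal saturation in the smaller falls was not tested. Col5a1 fell by 0.37 at the middle one of its 3 probe sets and gave -0.35 at the dimmest, which missed the threshold. The second set of Col5a3, with a mean of 64.7, gave -0.08 and was not called.

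**Figure D3:**
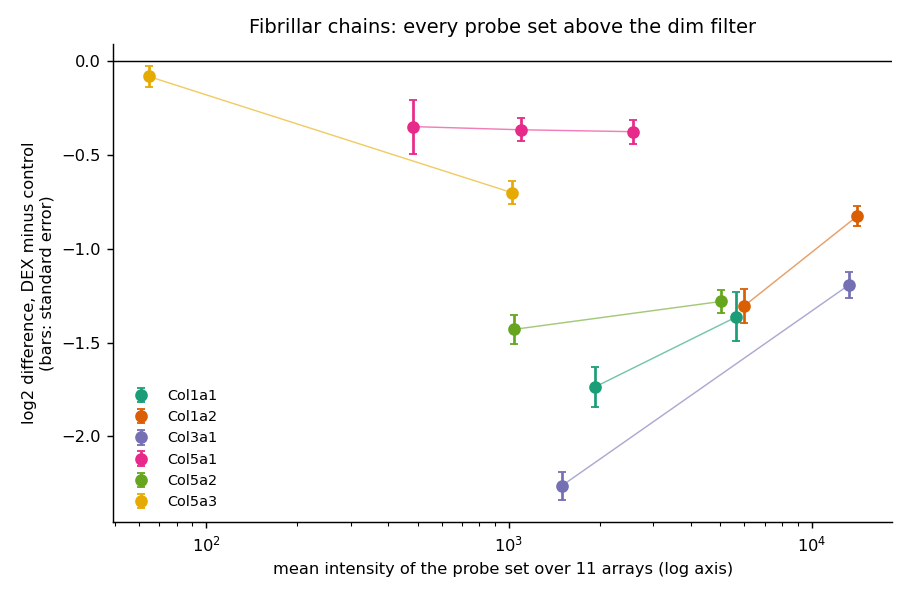
Log2 difference of DEX from control (vertical axis, bars are standard errors) against the mean intensity over 11 arrays (horizontal log axis) for every probe set of the fibrillar chains above the dim limit; lines join probe sets of 1 gene. The brightest sets of Col1a2, Col3a1, Col1a1 and Col5a2 show smaller falls than their dimmer sets, Col5a1 is nearly flat, and the dim set of Col5a3 lies near zero.

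In TNF 3 and in CI 1 of the 6 fibrillar chains were called. In TNF, Col5a3 read 829.5, 891.0 and 789.6, all below control, a difference of -0.54 (SE 0.0625, adjusted p = 1.52e-05), while its dim second set gave -0.11 and was not called. Col5a1 read 2412, 2312 and 2544 in TNF, a difference of -0.20 (SE 0.0648, adjusted p = 0.0393) that was lost without control replicate 1 (-0.16, adjusted p = 0.132) or 2 or TNF replicate 1 or 2. Col5a2 read 6879, 6624 and 6618, above every control array, with a difference of 0.19 (SE 0.0646, adjusted p = 0.0461). That small rise missed the threshold under 10 alternatives, among them the omission of control replicate 2 or 3 (0.13, adjusted p = 0.20, without the latter), of any TNF array, of either CI array or of DEX replicate 3, and its dimmer probe set gave -0.06. Col1a1 gave -0.21 (SE 0.123, adjusted p = 0.223) at its brightest set and was not called, with TNF arrays at 6251, 6052 and 6226 inside the control range. Its dimmer set fell by 0.68 (adjusted p = 0.000967, limma over all probe sets), so whether Col1a1 was called in TNF depended on the probe set. In the same fit, Col3a1 gave -0.14 at its brightest set, not called, and -0.27 (adjusted p = 0.0333) at its dimmer set. The middle set of Col5a1 gave -0.27 (adjusted p = 0.0113) and its dimmest -0.31, not called. Col1a2 gave -0.04 at its brightest set and 0.09 at the next, neither called.

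In CI, of the fibrillar chains only Col5a2 was called, at 5124 and 4976 against the control values above, a difference of -0.22 (SE 0.0722, adjusted p = 0.0481). It missed the threshold in 13 alternatives, among them the omission of either CI array (-0.24, adjusted p = 0.142, and -0.20, adjusted p = 0.206), of control replicate 1 (-0.17, adjusted p = 0.168) or 2, of any TNF array or of DEX replicate 3. Col1a2 lay below every control array at 14203 and 15039 and gave -0.18 (SE 0.0637, adjusted p = 0.0603), over the threshold. Col5a1 and Col5a3, at 3191 and 3121 and at 1359 and 1446, lay above every control array and gave 0.19 each, with adjusted p-values of 0.097 and 0.0752. Neither was called, and such separation was common in CI, with 3746 of 15623 tested genes above all control arrays and 3439 below. Of the 6 chains, 4 had negative and 2 positive differences in CI.

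Between treatments, TNF exceeded DEX at 12 collagen genes and fell below it at 5 (48.6% of 35, where 36.1% of all tested genes were called). The 5 became 2 after median centring (with 14 higher) and without TNF replicate 1, DEX replicate 1 or DEX replicate 3. TNF exceeded CI at 5 and fell below it at 9 (40%, beside 36.2%), and DEX exceeded CI at 1 and fell below it at 12 (37.1%, beside 34%). Of the 6 fibrillar chains, 5 were called higher in TNF than in DEX, as 18.2% of all tested genes were. The differences of TNF from DEX were 1.47 (SE 0.0646, adjusted p = 1.99e-10) for Col5a2, 1.15 (SE 0.123, adjusted p = 2.94e-06) for Col1a1 and 1.05 (SE 0.0679, adjusted p = 1.22e-08) for Col3a1. Col5a3 gave 0.16 (SE 0.0625, adjusted p = 0.063) and was not called. Against CI, all 6 chains were lower in DEX, with a median difference of -0.98, where 16.9% of all tested genes were called lower.

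The regions before the transcription starts of Col1a2 and Col3a1 are shown because these chains fell together, and that of Col15a1 because it had the largest fall in DEX at the brightest probe sets. The 250 bases before each annotated start, from RefSeq on GRCm38.p6, are given on the strand of the gene, with matches to 5 motifs in capitals. No window was listed for Col1a1 or Col5a2.
Col1a2: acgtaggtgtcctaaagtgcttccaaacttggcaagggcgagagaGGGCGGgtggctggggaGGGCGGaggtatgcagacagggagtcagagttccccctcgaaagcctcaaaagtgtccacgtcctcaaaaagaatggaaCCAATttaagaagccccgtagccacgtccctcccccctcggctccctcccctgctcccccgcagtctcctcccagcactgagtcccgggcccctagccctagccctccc
Col3a1: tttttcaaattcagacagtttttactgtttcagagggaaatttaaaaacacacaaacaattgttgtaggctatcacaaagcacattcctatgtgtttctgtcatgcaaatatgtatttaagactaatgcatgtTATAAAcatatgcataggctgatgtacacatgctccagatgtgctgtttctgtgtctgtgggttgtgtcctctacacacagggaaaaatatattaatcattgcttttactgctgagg
Col15a1: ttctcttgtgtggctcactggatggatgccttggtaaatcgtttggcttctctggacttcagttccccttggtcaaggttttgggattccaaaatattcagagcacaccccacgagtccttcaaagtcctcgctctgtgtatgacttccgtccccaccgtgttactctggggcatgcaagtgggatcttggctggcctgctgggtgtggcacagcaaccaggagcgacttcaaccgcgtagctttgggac
The Col1a2 stretch is chr6:4505368-4505617 and holds GGGCGG, the GC box, at -205 and -188 from the start and CCAAT at -109. The Col3a1 stretch is chr1:45311288-45311537 and holds TATAAA at -117. The Col15a1 stretch, chr4:47207762-47208011, holds none of the 5 motifs. All are on the plus strand, and positions count the first base of a match from the first transcribed base.

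The motifs searched on both strands were the CCAAT box, the GC box given above, the TATA box (TATAAA), the AP-1 element (TGANTCA) and the palindromic glucocorticoid response element, and no matches overlap in the stretches shown. Windows were listed for 33 of the 42 collagen genes, 36 in all. The GC box was found in 21 of 36, beside 32.7% of 32851 listed windows of the same length. The CCAAT box was found in 13, beside 33.8%, and the TATA box in 5, beside 12.4%. The AP-1 element was in 1, that of Col6a1, beside 6.75%. The glucocorticoid response element was in 0 of the 36 and in 0.0304% of all windows. A match is a run of letters only, and no binding was measured.

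Col4a1 and Col4a2, the type IV chains that make the basement membrane network of most tissues, were not called in any comparison with control. Col4a1 read 8882, 8722 and 8994 in control, 9166 and 10159.9 in CI, 9072, 9192 and 9419.9 in TNF and 9884, 9539 and 9363 in DEX. Every treated array lay above every control array, yet no comparison was called. The DEX difference of 0.11 (SE 0.0536, adjusted p = 0.136) had a 95% interval of -0.00096 to 0.23, and the smallest fibrillar fall, -0.38, lies outside it. Col4a2, the second chain of the same trimer, read 6696, 6379.8 and 6375 in control and 7506, 6755 and 6959.6 in DEX. Its DEX difference was 0.12 (SE 0.0551, adjusted p = 0.111), with an interval of 0.0068 to 0.24, and was not called. In TNF its difference was 0.01 (interval -0.10 to 0.13), with overlapping arrays.

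Col4a1 and Col4a2 lie on opposite strands and overlap at their first bases, with 20 bases between their annotated starts. Col4a1 is read towards lower positions from 11312826, and Col4a2 towards higher positions from 11312805. The 22 bases from start to start thus lie in both transcripts. The stretch over both starts is shown for that reason, chr8:11312801-11312830 on the plus strand of GRCm38.p6, with the bases from start to start in capitals.
Col4a1 and Col4a2: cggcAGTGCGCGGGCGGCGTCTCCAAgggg
Over the 11 arrays the log2 values of this pair had a Pearson correlation of 0.80, a description over arrays that share treatments. For the other neighbouring pairs, with no protein-coding gene between them, it was 0.96 for Col3a1 and Col5a2, 0.89 for Col6a1 and Col6a2, 0.51 for Col4a3 and Col4a4 and -0.64 for Col4a5 and Col4a6. The pair of Col4a5 and Col4a6 is the one of the 5 with a negative correlation.

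Of the other type IV chains, Col4a5 rose and Col4a4 fell in TNF. Col4a5, which with Col4a3 and Col4a4 or with Col4a6 forms the networks of kidney and smooth muscle, read 1216, 1229.9 and 1175 in control and 1877, 1687 and 1862 in TNF. All TNF arrays were above all others, a difference of 0.58 (SE 0.0658, adjusted p = 1.46e-05). Its dimmer probe set gave 0.44 in TNF and was not called in limma over all probe sets (adjusted p = 0.0745). With that set in the fit over genes the call was kept. Col4a5 was not called in DEX (-0.09, adjusted p = 0.356) or CI (-0.07, adjusted p = 0.574). Col4a4, near the dim limit, read 65.0, 65.2 and 64.0 in control and 49.1, 54.7 and 54.8 in TNF, a difference of -0.23 (SE 0.0649, adjusted p = 0.0174) that was lost without TNF replicate 1 (-0.19, adjusted p = 0.0819) or control replicate 2 (-0.23, adjusted p = 0.0561) and with the mean of its probe sets (-0.11, adjusted p = 0.0543). Col4a3 and Col4a6 ranged from 113.7 to 144.5 and from 124.4 to 161.6 over the 11 arrays, with overlapping groups and no call against control.

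The closely related Col15a1 and Col18a1 moved in opposite directions under TNF. Col15a1 read 691.4, 666.2 and 693.8 in control, 883.0 and 955.6 in CI, 381.0, 396.3 and 452.7 in TNF and 198.0, 239.9 and 274.7 in DEX. The 4 groups did not overlap at all, in the order CI, control, TNF and DEX from high to low. The differences from control were 0.42 (SE 0.103, adjusted p = 0.0112) in CI, -0.72 (SE 0.0918, adjusted p = 4.14e-05) in TNF and -1.48 (SE 0.0918, adjusted p = 1.14e-08) in DEX, the last the largest fall among the brightest probe sets of the collagen genes. The rise in CI missed the threshold without CI replicate 2 (0.36, adjusted p = 0.0991).

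Col18a1 read 1196, 1115 and 1219 in control, 1488 and 1585 in CI, 2082, 2052 and 2026 in TNF and 986.6, 1127 and 1108 in DEX. TNF arrays were the highest and CI arrays next, both clear of control. The differences were 0.80 (SE 0.0609, adjusted p = 2.46e-07) in TNF and 0.38 (SE 0.0681, adjusted p = 0.00137) in CI, while DEX gave -0.13 (SE 0.0609, adjusted p = 0.128) with overlapping arrays. Its second probe set gave 0.93 in TNF and 0.43 in CI, so both sets of Col18a1 rose in both treatments.

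**Figure D4:**
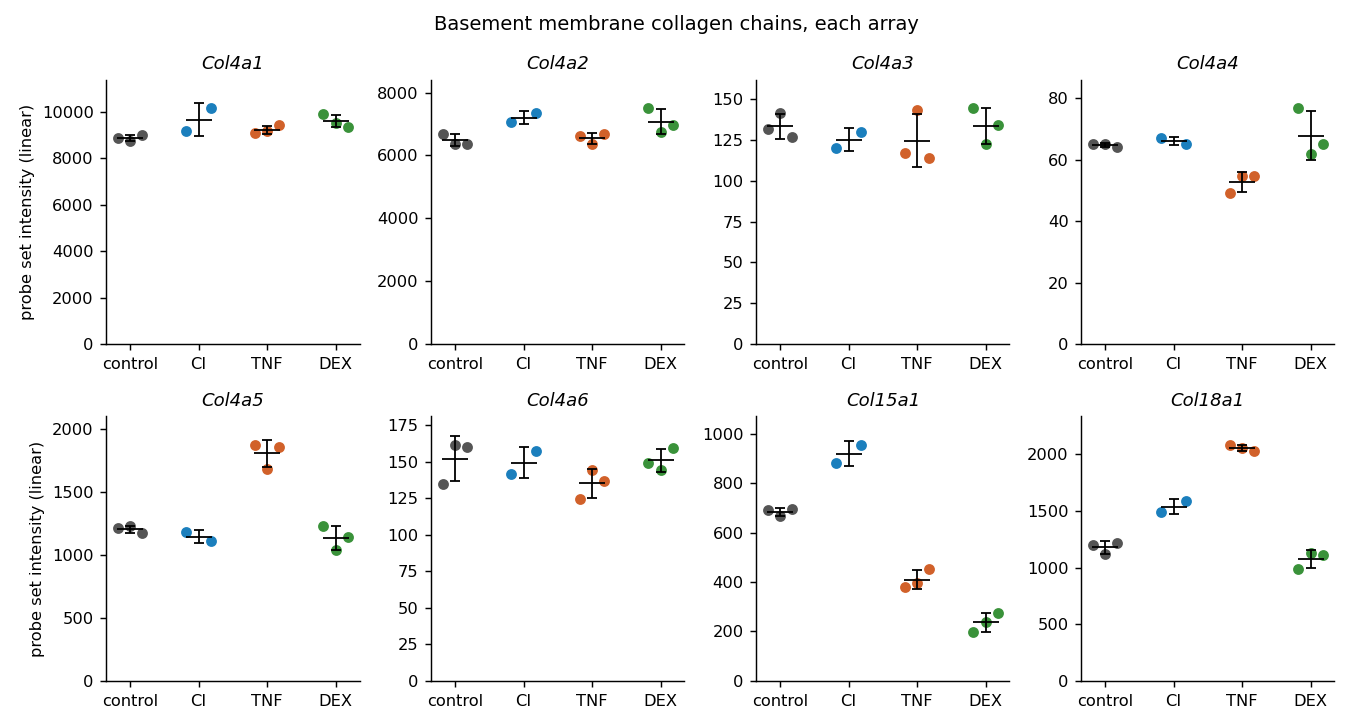
Probe set intensity (linear, vertical axis from 0) of the 8 basement membrane chains in each array; points are arrays, and bars are the mean and SD. The arrays of Col4a1 run from 8722 to 10159.9, Col4a5 and Col18a1 are highest in TNF, and Col15a1 is highest in CI and lowest in DEX.

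Set against each other, the classes parted in DEX. The median log2 difference of the fibrillar chains was -1.01 there and that of the basement membrane chains -0.003, a gap of -1.01. The value of -0.003 lies midway between Col4a6 (-0.008) and Col4a3 (0.002), whose mean intensities of 146.7 and 129.6 are close to the array medians. The other basement membrane chains gave 0.11 (Col4a1), 0.12 (Col4a2), 0.05 (Col4a4), -0.09 (Col4a5), -0.13 (Col18a1) and -1.48 (Col15a1) in DEX. Per array, the median deviation from the control mean gave gaps of -0.95, -1.02 and -1.06 in DEX and of 0.07, -0.004 and -0.06 in control, while the SD of the gap within groups was 0.0643. In CI the gap was -0.17 (arrays at -0.23 and -0.13) and in TNF -0.13 (arrays at -0.08, -0.20 and -0.11). Since the members were chosen with results of these data known, no p is given for the gap. In DEX the fibrillar chains all fell, while Col15a1 stood apart from the other basement membrane chains. The called counts in DEX were 0 higher and 6 lower of 6 fibrillar chains and 0 higher and 1 lower of 8 basement membrane chains. In TNF they were 1 higher and 2 lower against 2 higher and 2 lower, and in CI 0 higher and 1 lower against 2 higher and 0 lower.

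Col15a1, the basement membrane chain that fell in DEX, varied with fibrillar chains across arrays. Over the 11 arrays its log2 values had Pearson correlations from 0.66 with Col5a2 to 0.94 with Col5a3, with 0.74 for Col1a2, 0.82 for Col3a1 and for Col1a1 and 0.91 for Col5a1. Among the fibrillar chains, Col1a1 with Col3a1 and Col1a2 with Col5a2 both reached 0.98, and the lowest value was 0.495, for Col5a2 with Col5a3. These are descriptions over the same 11 arrays, in which the DEX group stands low for each of these genes.

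Of the other collagen genes, the type VI chains, which form beaded filaments around fat cells, moved in both directions. Col6a3 read 7676, 7445 and 8005 in control, 9199 and 9639.9 in CI and 10181, 9998 and 9795 in DEX. It rose in both, by 0.37 (SE 0.0576, adjusted p = 0.000153) in DEX and 0.29 (SE 0.0644, adjusted p = 0.00619) in CI, with no overlap with control. The rise in CI was lost without CI replicate 2 (0.26, adjusted p = 0.0623). In TNF, Col6a3 overlapped control at 7603, 7526 and 8448.

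Col6a2, whose chain pairs with those of Col6a1 and Col6a3 in 1 trimer, read 10369, 10457 and 10549 in control, 12658 and 12482 in CI, 8274, 8061 and 8538 in TNF and 7736, 7363 and 7109 in DEX. The groups did not overlap, and the differences were 0.26 (SE 0.0574, adjusted p = 0.00515) in CI (lost at the dimmer probe set, 0.24, adjusted p = 0.0543), -0.33 (SE 0.0513, adjusted p = 0.000211) in TNF and -0.50 (SE 0.0513, adjusted p = 2.69e-06) in DEX. Col6a1 read 13136, 12613 and 12349.8 in control and 11368, 10343 and 10875 in DEX and fell by a smaller amount, -0.23 (SE 0.0533, adjusted p = 0.00496). In DEX, 1 trimer's genes therefore gave a rise for Col6a3 and falls for Col6a1 and Col6a2.

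Fibrillar chains known from cartilage fell in some treatments. Col11a1 read 300.3, 251.9 and 265.6 in control and lay lower in every treated array, at 188.9 and 234.6 in CI, 171.3, 154.9 and 183.2 in TNF and 217.8, 182.9 and 210.1 in DEX. Its differences were -0.63 (SE 0.0891, adjusted p = 9.69e-05) in TNF, -0.39 (SE 0.0891, adjusted p = 0.00365) in DEX and -0.35 (SE 0.0996, adjusted p = 0.0262) in CI, the last lost without CI replicate 1 (-0.20, adjusted p = 0.345) or control replicate 1 (-0.28, adjusted p = 0.105). Col2a1, the type II chain, fell in DEX from 221.9, 273.7 and 248.9 to 214.2, 169.5 and 164.8, a difference of -0.41 (SE 0.0906, adjusted p = 0.00288). Col27a1 fell in TNF from 417.2, 440.5 and 432.3 to 341.6, 398.8 and 350.9, a difference of -0.23 (SE 0.059, adjusted p = 0.00904) that was lost without TNF replicate 1 (-0.19, adjusted p = 0.0505) and at its dimmer probe set (-0.09, adjusted p = 0.424).

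Col23a1, a transmembrane collagen, read 261.4, 248.4 and 242.0 in control and was called lower in all 3 treatments, at 210.0 and 211.6 in CI, 198.7, 209.9 and 203.4 in TNF and 160.9, 153.1 and 174.9 in DEX. The differences were -0.58 (SE 0.0566, adjusted p = 1.66e-06) in DEX, -0.28 (SE 0.0566, adjusted p = 0.00226) in TNF and -0.23 (SE 0.0633, adjusted p = 0.0194) in CI. The CI call was lost without control replicate 1 (-0.20, adjusted p = 0.0721) and without either CI array (adjusted p = 0.112 and 0.0822). At the dimmest probe set above the limit, TNF gave -0.17 (adjusted p = 0.234) and CI -0.06 (adjusted p = 0.812), both lost, while DEX gave -0.31 and was called. Col16a1, a fibril-associated chain, read 554.1, 484.7 and 459.2 in control, 398.3 and 422.8 in CI and 450.7, 398.1 and 401.8 in DEX. Its falls in CI, -0.27 (SE 0.0785, adjusted p = 0.0279), and in DEX, -0.25 (SE 0.0702, adjusted p = 0.0151), were both lost without control replicate 1 (-0.19, adjusted p = 0.110, and -0.17, adjusted p = 0.0804). The fall in CI was also lost without control replicate 2 or either CI array, and that in DEX without DEX replicate 2 or 3.

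Col8a1, a short-chain network collagen, had uneven control arrays, at 120.1, 134.6 and 209.9. The TNF arrays, at 214.0, 215.3 and 192.4, overlapped them, and the rise of 0.42 (SE 0.131, adjusted p = 0.0285) was lost without control replicate 1 (0.27, adjusted p = 0.124) or 2 (0.35, adjusted p = 0.125) or TNF replicate 1 or 2 (0.40, adjusted p = 0.0834, and 0.39, adjusted p = 0.0859). The DEX arrays, at 107.4, 105.9 and 96.4, were below all control arrays, a difference of -0.48 (SE 0.131, adjusted p = 0.0116). Its 3 probe sets gave 0.42, 0.95 and -0.0009 in TNF and -0.48, -0.55 and -0.08 in DEX, and the last set was not called in either. Col9a1 fell in TNF from 203.4, 201.9 and 187.7 to 166.4, 173.0 and 169.5, a difference of -0.20 (SE 0.0669, adjusted p = 0.0381). Col20a1 rose in DEX from 233.7, 252.9 and 240.6 to 299.1, 259.6 and 274.1, a difference of 0.18 (SE 0.0621, adjusted p = 0.0399). Each of these 2 small changes missed the threshold under 8 alternatives, without control replicate 1 among them (-0.18, adjusted p = 0.102, and 0.16, adjusted p = 0.129). The other arrays whose omission ended the call were control replicate 2 and every TNF array for Col9a1, and control replicate 3, TNF replicates 1 and 2 and DEX replicates 1 and 3 for Col20a1. In limma over all probe sets, the dimmer sets of Col20a1 gave 0.32 (adjusted p = 0.0113), 0.23 (adjusted p = 0.0121) and 0.16 (adjusted p = 0.0673) in DEX. The remaining 10 tested collagen genes were not called at their brightest probe sets in any comparison with control. A dimmer set of Col12a1 gave -0.37 in DEX (adjusted p = 0.0229, limma over all probe sets).

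**Figure D5:**
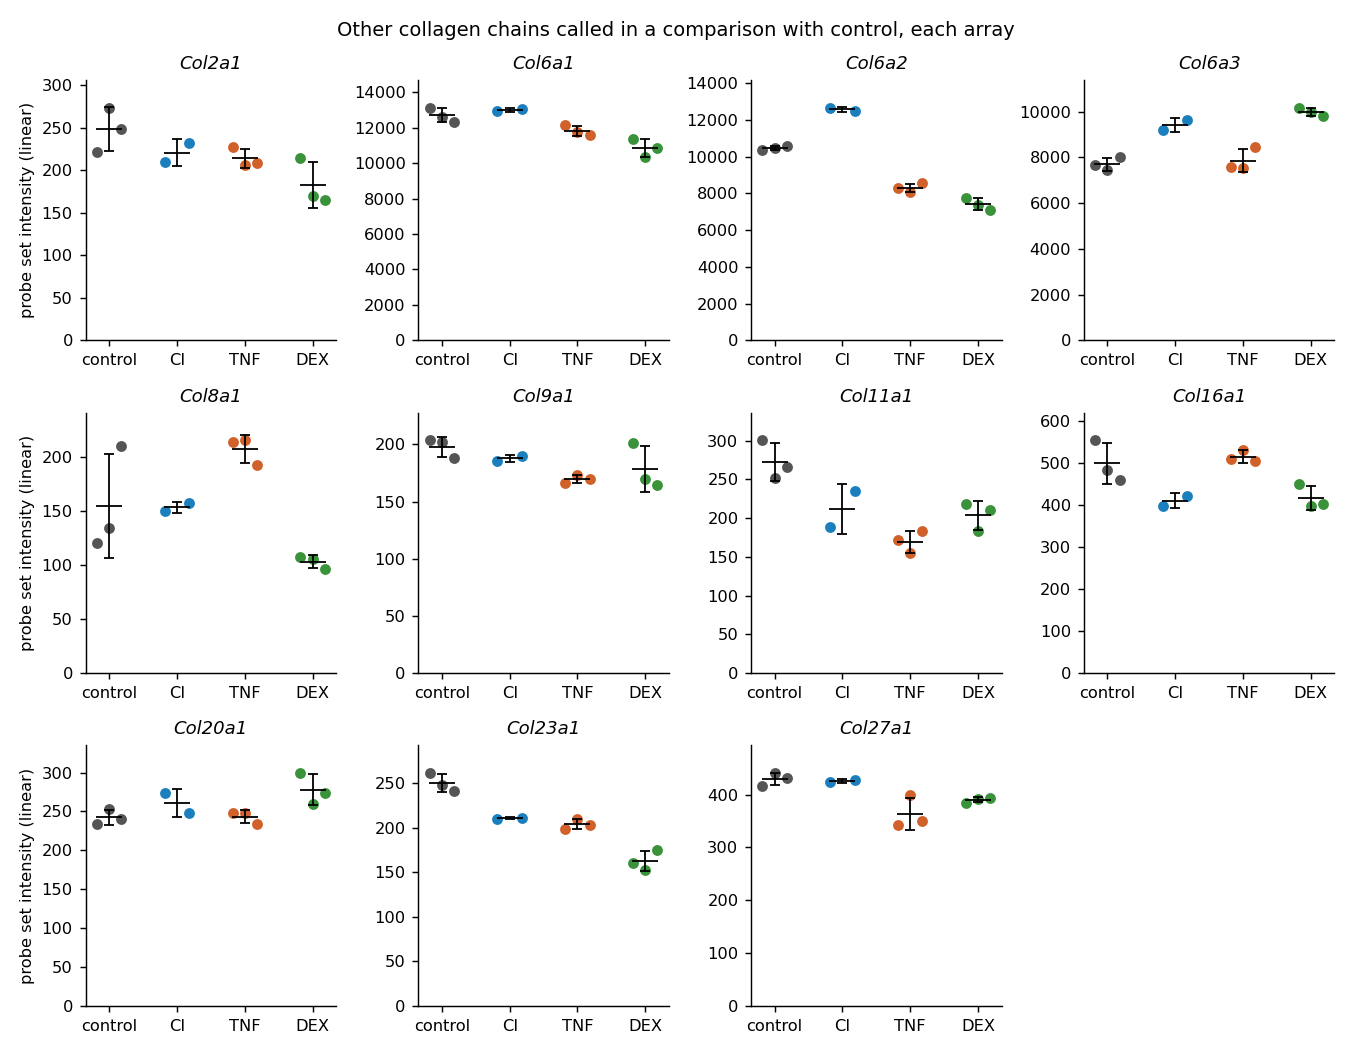
Probe set intensity (linear, vertical axis from 0) of the other collagen genes called in a comparison with control, in each array; points are arrays, and bars are the mean and SD. Col6a3 rises in CI and DEX while Col6a2 rises in CI and falls in TNF and DEX, and the control arrays of Col8a1 run from 120.1 to 209.9.

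Genes that modify, fold, process, bind and break down collagen were counted from 6 lists. In each of these comparisons the shares of all tested genes given above, 17.3% in CI, 25.2% in TNF and 27.6% in DEX, apply, and no list was tested as a set. Of 8 tested genes of folding and export, 5 fell and 0 rose in DEX, 1 fell in TNF, and 2 rose and 1 fell in CI. Serpinh1, the collagen chaperone Hsp47, fell in DEX from a mean of 5722 to 3364, a difference of -0.76 (SE 0.107, adjusted p = 6.87e-05), and was at 5729 in TNF. Creb3l1, a transcription factor of the secretory pathway known to act on type I collagen genes, fell in all 3, with -0.60 (SE 0.058, adjusted p = 1.31e-06) in DEX, -0.44 (SE 0.058, adjusted p = 4.99e-05) in TNF and -0.34 (SE 0.0648, adjusted p = 0.00233) in CI. Sec23a, a coat protein of export vesicles, fell in DEX, a difference of -0.44 (SE 0.0511, adjusted p = 9.27e-06).

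Of 14 tested hydroxylases and glycosyltransferases, 6 rose and 1 fell in TNF, 4 rose and 6 fell in DEX, and 3 rose and 2 fell in CI. P4ha1, a catalytic subunit of prolyl 4-hydroxylase, rose in TNF and CI and fell in DEX, with 0.61 (SE 0.0537, adjusted p = 1.14e-06), 0.59 (SE 0.06, adjusted p = 1.75e-05) and -0.36 (SE 0.0537, adjusted p = 0.000105). P4ha2, the alternative subunit, rose in TNF from a mean of 459.6 to 983.2, a difference of 1.07 (SE 0.0811, adjusted p = 2.34e-07). P3h3, a prolyl 3-hydroxylase family member, rose in TNF (0.39, adjusted p = 0.00147) and fell in CI (-0.78, adjusted p = 2.99e-05) and DEX (-0.39, adjusted p = 0.00116). P3h4 rose in DEX (0.37, adjusted p = 0.000228). After quantile normalization and after median centring the count in TNF was 6 higher and 0 lower, and in CI it was 1 higher and 2 lower after centring.

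Of 9 tested genes of propeptide processing and cross-linking, 5 rose and 0 fell in TNF, 1 rose and 3 fell in DEX, and 2 fell in CI. The lysyl oxidase relatives Loxl4 and Loxl3 rose in TNF, by 0.63 (SE 0.0729, adjusted p = 1.6e-05) and 0.52 (SE 0.0645, adjusted p = 3.34e-05). Pcolce, which enhances removal of the C-propeptide, rose in TNF by 0.34 (SE 0.0656, adjusted p = 0.00161). Of 11 tested genes of breakdown and uptake, 7 rose and 1 fell in TNF, 3 rose and 5 fell in DEX, and 5 fell in CI. Timp1, an inhibitor of matrix metalloproteinases, rose in TNF from a mean of 526.0 to 1858, a difference of 1.78 (SE 0.105, adjusted p = 1.95e-08), and Mmp9, a gelatinase, by 1.31 (SE 0.0817, adjusted p = 3.42e-08). The collagen-degrading protease Ctsk rose in TNF (0.56, adjusted p = 6.22e-06) and fell in DEX (-0.23, adjusted p = 0.00886). Timp3, an inhibitor held in the matrix, fell in DEX, a difference of -1.56 (SE 0.0775, adjusted p = 9.83e-10) that was -0.52 at its dimmest probe set. Its relative Timp4 rose in DEX by 1.54 (SE 0.153, adjusted p = 1.76e-06), or 0.93 at its dimmest probe set. Timp2 rose in DEX by 0.35 (SE 0.0754, adjusted p = 0.00238), a call lost at its dimmest probe set (0.15, adjusted p = 0.398). In CI, Timp2 fell, a difference of -0.74 (SE 0.0843, adjusted p = 4.73e-05). Mrc2, the endocytic collagen receptor, fell in DEX, a difference of -0.67 (SE 0.0672, adjusted p = 2.17e-06), or -0.44 at its dimmest probe set.

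Of 7 tested collagen receptors, 2 rose in TNF, 1 rose and 2 fell in DEX, and 1 fell in CI. Ddr2, a receptor kinase for fibrillar collagen, rose in TNF (0.42, adjusted p = 3.36e-05) and fell in DEX (-0.27, adjusted p = 0.00113). Its fall in CI was larger (-0.45, adjusted p = 0.000132) but was lost at its dimmest probe set (-0.13, adjusted p = 0.441). Of 14 tested basement membrane partners, 1 rose and 7 fell in DEX, 4 rose and 2 fell in TNF (3 and 3 after quantile normalization), and 3 rose in CI. Nid2, the linker nidogen-2, fell in DEX from a mean of 614.8 to 290.6, a difference of -1.04 (SE 0.0715, adjusted p = 3.29e-08). The laminin chains Lamb3 and Lama4 fell in DEX, with differences of -0.90 (SE 0.0675, adjusted p = 8.61e-08) and -0.61 (SE 0.0626, adjusted p = 2.81e-06). These partners fell in DEX while Col4a1 and Col4a2 were not called.

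Markers of preadipocytes and fibroblasts, cells rich in fibrillar collagen, moved as well. Of 6 tested, 1 rose and 3 fell in DEX, 4 rose and 0 fell in TNF, and 5 fell in CI. Beside each marker count here stand the shares of all tested genes called, 27.6% in DEX, 25.2% in TNF and 17.3% in CI. No marker list was tested as a set. Their summed level was 20627 to 23728 in control, 15761 to 18317 in DEX, 15301 to 15309 in CI and 27875 to 30269 in TNF. Most of the fall of this sum in DEX came from Dlk1, with means of 9889 in control and 4943 in DEX. Pdgfra (2141 and 2270) and Acta2 (3995 and 3819) were not called in DEX. In DEX, Dlk1 (preadipocyte factor 1) gave -0.996, Pdgfrb -0.91 and Thy1 -0.54, while S100a4 gave 0.41, all called. Dlk1 and Thy1 fell in CI as well, by 0.56 and 0.53, and the call of Thy1 was lost without CI replicate 1 (-0.36, adjusted p = 0.0889). In CI 1 of the 6 fibrillar chains was called. The dimmest probe set of Dlk1 gave -0.20 in DEX and was not called. In TNF, Acta2 (means 3995 in control and 7674 in TNF), S100a4, Pdgfra and Pdgfrb rose. The difference of 0.94 for Acta2 was 0.11 at its dimmest probe set (adjusted p = 0.478), which was not called. Dlk1 (9889 in control and 8800 in TNF) and Thy1 (1455 and 1215) had lower means in TNF and were not called. Of 4 smooth muscle and pericyte markers, 2 fell in DEX, with a summed level of 831.4 to 885.0 there and 949.8 to 1032 in control. Of 7 adipocyte markers, 1 rose and 3 fell in DEX, 4 fell in TNF, and 1 rose in CI. In DEX, Slc2a4 gave -0.80, Pparg -0.39, Lipe -0.29 and Cidec 0.22. In TNF, Retn gave -0.83, Cidec -0.64, Slc2a4 -0.54 and Lipe -0.38. Both Lipe calls were lost with the mean of its probe sets. The rise in CI was Cidec (0.20), lost after median centring. The summed level of the 7 markers, 89977 to 91326 in control, 85217 to 90477 in DEX and 72765 to 74714 in TNF, draws much of its size from Adipoq and Fabp4, which lie near the largest values of the arrays, so it says little about the share of adipocytes. In bulk samples fewer cells of a type and less RNA per cell cannot be told apart, and the part of these markers in the collagen results was not tested.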

How the data were processed

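The deposited values are linear intensities of 45101 probe sets, 1 column per array, as made by the authors. Per the labels' protocols, biotin-labelled cRNA from total RNA was hybridised to Affymetrix arrays. Background correction, summarisation and normalization are not given in the sources used here. No further normalization was applied, since quartiles of log2 intensity differed by at most 0.0737 between arrays. Arrays of a group had Spearman correlations of 0.996 to 0.9977 without being copies.

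Groups and replicate numbers came from the sample titles. Probe sets with 1 gene symbol were used (34945, with 932 of several symbols left out), the brightest per gene. A gene was left out where its mean intensity over the arrays was below the 25th percentile of the array's probe sets. Values were taken as log2(intensity + 16) and compared in limma 3.58.1 under R 4.3.3 by two-sided moderated tests from lmFit and eBayes (7 residual degrees of freedom), with a mean per group and Benjamini-Hochberg adjustment over 15623 genes. The procedure was tested on simulated data with changes planted in DEX only, larger than many of the differences named here. That run therefore does not cover CI, TNF or the smaller differences. SDs are between arrays. A comparison of chain proteins was not run here. The members, gene lists and alternatives were chosen with earlier results of these data known. Values in every array are given for fibrillar and basement membrane chains and for other collagen genes called against control, and up to 4 genes with the smallest adjusted p may be named from each other list. Alternatives were other pseudocounts, filters, scalings, probe set rules, only the groups compared, an intensity trend, a replicate block and omission of each array.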

Additional observations from a re-analysis of the deposited data

How the results depend on the processing

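Of 37 called differences of named collagen genes from control, 17 were called under every one of the 10 other settings, the added setting and the 11 omissions of an array. The other 20 were lost under at least 1, and 2 of those changed sign: at the dimmest probe set above the filter, a setting chosen after seeing the data, Col5a2 in TNF gave -0.05897 and Col8a1 in TNF -0.0008506. That setting also lowered the collagen calls in TNF from 13 to 8 and widened the DEX gap between fibrillar and basement membrane medians to -1.395. The mean of all probe sets gave gaps of -1.12 in DEX and -0.197 in TNF.

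Leaving out each array in turn gave 3 to 9 collagen calls in CI (8 with all arrays; 3 without CI replicate 2, 4 without CI replicate 1 or control replicate 1) and 7 to 13 in TNF (13 with all; 7 without TNF replicate 1, 8 without control replicate 2). It gave 14 to 16 in DEX, 12 to 17 for TNF against DEX, 10 to 15 for TNF against CI and 11 to 13 for DEX against CI. The gap ranged from -1.051 to -0.9417 in DEX, from -0.2427 to -0.1078 in CI (the latter without control replicate 1) and from -0.1532 to -0.07567 in TNF (the latter without TNF replicate 2). With CI replicate 1 or 2 omitted, the remaining array is taken to vary as the other groups do. The cause of these changes was not tested, beyond the smaller number of arrays.

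With the replicate block, collagen calls were 8 in CI, 13 in TNF and 16 in DEX, and 15 for TNF against DEX. Same-numbered arrays had correlated deviations of -0.06056 to 0.3409 over 8 pairs, 4 of them over 0.1, and 6 of 11 arrays were most like an array of their own number. Not every pair passed 0.1 and the labels name no shared batch, so the numbers were not taken as pairs, and whether some same-numbered arrays share a batch was not tested. Raising the filter to the median of all probe sets left Col4a4, which is near the dim limit, without a value.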

Other observations

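Among all tested genes, the 5 whose log2 values over the 11 arrays were most like those of Col1a1 by Pearson correlation were Rrbp1 (0.987), a ribosome-binding protein of the rough endoplasmic reticulum, Col3a1 (0.980), the laminin chain Lama4 (0.974), Islr (0.973) and the collagen chaperone Serpinh1 (0.969). Their group means were lowest in DEX, for example 1352 in control, 1097 in CI, 1197 in TNF and 643.2 in DEX for Islr. For Col4a1 the 5 were Synj2 (0.917), a phosphoinositide phosphatase, Dcbld1 (0.845), Hebp2 (0.837), Pias4 (0.835) and Pnma5 (0.833). Synj2 was at 289.4 in control, 337.6 in CI, 308.8 in TNF and 324.1 in DEX. These correlations are descriptions over arrays that share treatments, and carry no p.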
